A study of Mus musculus with 6 samples.

Results

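CC chemokines are small secreted proteins that guide leukocytes, and 10 of their genes were followed here in resting bone-marrow-derived macrophages (BMDMs) with and without CITED2: *Ccl2*, *Ccl3*, *Ccl4*, *Ccl5*, *Ccl6*, *Ccl7*, *Ccl8*, *Ccl9*, *Ccl12* and *Ccl24*. They were found by gene name among the 22248 genes listed, and all 10 were present. Of these, 9 reached a mean of 1 FPKM (fragments per kilobase of transcript, scaled to the mapped fragments of the library) over the 6 libraries and were tested among 11687 genes, and *Ccl24* did not.

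CITED2 is a nuclear protein that binds the coactivators CBP and p300, and the study asked whether its loss in macrophages raises the expression of inflammatory genes. Control BMDMs (3 libraries) came from *Lyz2cre* mice, which carry Cre recombinase in 1 *Lyz2* allele and an intact *Cited2* gene. CITED2-deficient BMDMs (3 libraries) came from *Cited2 fl/fl*:*Lyz2cre* mice, in which both *Cited2* alleles are floxed and the same Cre removes them in cells that express *Lyz2*, which are mainly macrophages, monocytes and neutrophils. All mice were C57BL/6, and the labels place them at postnatal week 10, whereas the methods describe slightly younger donors. The marrow cells had been grown with macrophage colony-stimulating factor and were not given any further stimulus. The labels number the libraries 1 to 3 in each group without tying each to an animal, so the p-values measure the spread between these libraries.

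A CC chemokine is named for a pair of adjacent cysteines near the start of the mature protein. The secreted protein binds a G-protein-coupled receptor on a target cell and draws that cell up the gradient: CCR2 on monocytes, CCR1 on many myeloid cells and CCR3 on eosinophils. Macrophages are a main source of these proteins in inflamed tissue, where they bring in further monocytes and T cells. Many CC chemokine genes are switched on by NF-kB and by interferon-activated factors.

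Whole fragment numbers could be recovered from the FPKM, and they gave a depth of 17289286 to 18952077 fragments in the control libraries and 22583995 to 26100410 in the CITED2-deficient libraries, a mean ratio of 1.34. *Cited2* itself, which checks the labels, was at 71.7, 79.3 and 75.5 FPKM in the control libraries and at 9.27, 7.22 and 7.53 FPKM in the CITED2-deficient libraries (log2 fold change -3.09, SE 0.08, limma adjusted p = 6.57e-09). The 8 macrophage markers (*Adgre1*, *Csf1r*, *Cd68*, *Mertk*, *Fcgr1*, *Lyz2*, *Mrc1* and *Itgam*) were all above the filter, and their summed level was 5670 to 5720 FPKM in control and 5050 to 5160 FPKM in CITED2-deficient BMDMs, with 1 higher and 6 lower. Across all tested genes, 16.7% were called higher and 34.6% lower (limma, adjusted p below 0.05). *Lyz2*, whose locus carries Cre in both groups, was at 31.3 ± 1.03 FPKM in control and 9.75 ± 0.333 FPKM in CITED2-deficient BMDMs (SD, n = 3).

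The 9 tested genes are shown by the part of their coding sequence that defines the family. Each line gives 42 bases of the transcript, 5′ to 3′ on the coding strand, from the GENCODE vM21 annotation of mm10, with the adjacent cysteine codons in capitals.
*Ccl2*: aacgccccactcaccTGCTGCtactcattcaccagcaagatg
*Ccl7*: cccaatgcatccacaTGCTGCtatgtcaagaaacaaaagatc
*Ccl12*: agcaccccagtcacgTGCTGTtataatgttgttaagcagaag
*Ccl8*: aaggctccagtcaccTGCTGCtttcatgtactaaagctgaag
*Ccl5*: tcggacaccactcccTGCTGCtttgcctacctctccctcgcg
*Ccl3*: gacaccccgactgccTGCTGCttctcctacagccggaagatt
*Ccl4*: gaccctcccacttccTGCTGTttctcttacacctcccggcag
*Ccl6*: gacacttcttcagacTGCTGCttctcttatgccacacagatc
*Ccl9*: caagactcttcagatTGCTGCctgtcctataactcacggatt
The cysteine codons lay between the 32nd and the 35th codon in the first 7 of these lines, and were the 50th and 51st in *Ccl6* and the 57th and 58th in *Ccl9*, counted from the start codon, so the sequence before the cysteines was longest in *Ccl6* and *Ccl9*. Over the 45 pairs of the 10 genes, the median identity of the aligned coding sequences was 63.3%. The most alike pairs were *Ccl6* with *Ccl9* (70.7%), *Ccl8* with *Ccl12* (70.5%), *Ccl2* with *Ccl12* (69.7%) and *Ccl3* with *Ccl4* (69.6%). The longest run of bases shared exactly by transcripts of any pair was 25, between *Ccl6* and *Ccl9*. The sources used here do not give the read length, so how far reads could be assigned to the wrong member was not tested.

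Of the 9 tested CC chemokines, 7 were higher in CITED2-deficient BMDMs, 0 were lower and 2 did not pass the test (limma, adjusted p below 0.05), against 16.7% of all tested genes called higher and 34.6% called lower (51.3% in either direction). *Ccl5*, *Ccl8* and *Ccl12* rose most, *Ccl7*, *Ccl4* and *Ccl2* rose about as much as each other, and *Ccl9* rose by a small amount. *Ccl3* and *Ccl6* did not pass, and *Ccl24* was too low to test. The median log2 fold change of the 9 was 0.996, beside -0.101 for all tested genes. The fold changes of the test are on the log2(FPKM + 1) scale, which understates the change of low genes. With all libraries scaled by their median ratio instead, the share of all calls that were higher moved from 32.5% to 52%, and all 9 tested members were called higher, against 23.1% of all tested genes under that scaling. Because the libraries are bulk RNA, more cells that make a chemokine and more of its RNA per cell cannot be told apart.

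**Figure D1:**
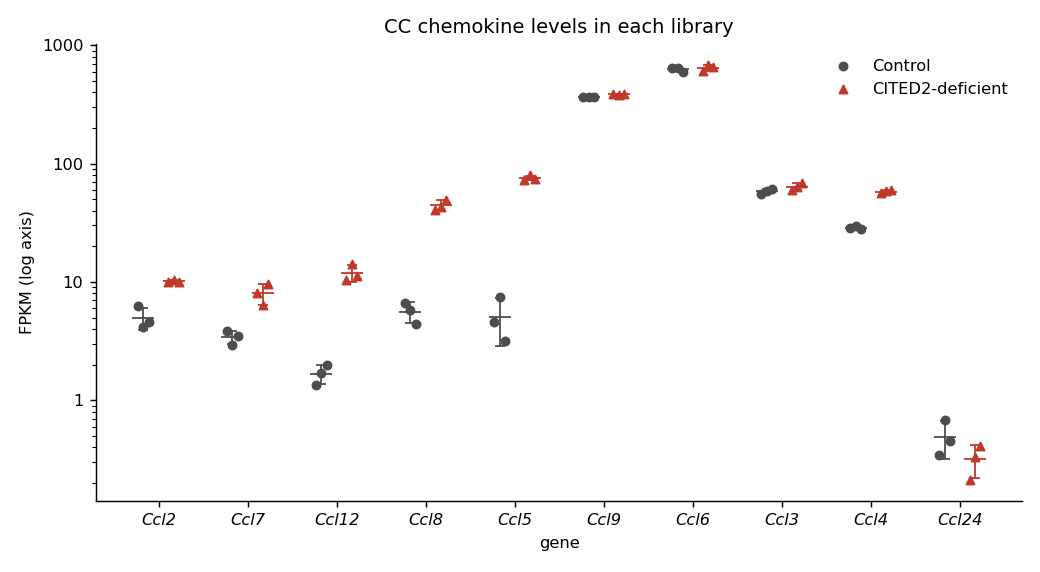
FPKM of each CC chemokine gene (log axis) in the 3 control (circles) and 3 CITED2-deficient (triangles) libraries, in chromosomal order with Ccl24 last; lines are the mean and SD. The groups are apart for Ccl2, Ccl7, Ccl12, Ccl8, Ccl5, Ccl9 and Ccl4, and overlap for Ccl6, Ccl3 and Ccl24.

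The monocyte chemoattractant group, *Ccl2*, *Ccl7*, *Ccl12* and *Ccl8*, was low in control BMDMs, and all 4 genes rose. *Ccl8*, whose mouse protein is known to act through CCR8, stood at 6.63, 5.77 and 4.44 FPKM in the control libraries and at 40.4, 43.3 and 49.5 FPKM in the CITED2-deficient libraries. These values do not overlap, and behind them are 43 to 64 fragments per control library and 500 to 660 per CITED2-deficient library. The mean went from 5.61 ± 1.10 to 44.4 ± 4.62 FPKM (SD, n = 3), 7.91 times the control mean (log2 fold change 2.79, SE 0.12, limma adjusted p = 1.46e-07).

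*Ccl12*, a CCR2 ligand that mice have beside *Ccl2*, was the lowest tested member in control BMDMs. It was at 1.35, 1.70 and 1.97 FPKM in the control libraries and at 10.4, 14.1 and 11.3 FPKM in the CITED2-deficient libraries. Every CITED2-deficient value lay above every control value, although only 13 to 19 fragments per control library support the baseline. The mean was 7.13 times the control mean, at 11.9 ± 1.91 against 1.68 ± 0.31 FPKM (log2 fold change 2.27, SE 0.13, limma adjusted p = 9.26e-07).

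*Ccl2*, the main ligand of CCR2 and the classical signal that calls monocytes out of the marrow, was at 6.21, 4.18 and 4.59 FPKM in the control libraries and at 9.94, 10.4 and 10.0 FPKM in the CITED2-deficient libraries. The groups were apart, and the CITED2-deficient libraries lay much closer together than the control libraries (coefficients of variation 2.62% and 21.5%). Counting error alone would give 6.47% and 10.7%, so the CITED2-deficient spread lay below it. The difference in spread was not tested. The log2 fold change was 0.91 (SE 0.12, limma adjusted p = 0.000197). *Ccl2* overlaps an annotated gene on the opposite strand, *Gm17268*, and the sources used here do not give the strand setting of the counting, so reads of both could not be told apart if strand was not used.

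*Ccl7*, which also binds CCR2, was at 3.83, 2.96 and 3.49 FPKM in the control libraries and at 8.11, 6.36 and 9.66 FPKM in the CITED2-deficient libraries. Its CITED2-deficient values were the most spread of the risen members, with a coefficient of variation of 20.6%, yet the lowest stood above the highest control value. The log2 fold change was 1.02 (SE 0.14, limma adjusted p = 0.000282). The 95% intervals of *Ccl2* (0.64 to 1.17) and *Ccl7* (0.70 to 1.33) overlapped each other and lay below those of *Ccl12* (1.98 to 2.56) and *Ccl8* (2.52 to 3.06).

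Of *Ccl3*, *Ccl4* and *Ccl5*, *Ccl5* and *Ccl4* rose and *Ccl3* did not pass the test. *Ccl5*, which attracts T cells, monocytes and eosinophils, was at 4.59, 7.52 and 3.17 FPKM in the control libraries and at 73.0, 79.4 and 74.0 FPKM in the CITED2-deficient libraries. The CITED2-deficient libraries differed little from one another, while control replicate 2 held more than control replicate 3 by 78 to 36 fragments. The control coefficient of variation was 43.6%, and counting error alone would give 13.4%. The mean rose from 5.09 ± 2.22 to 75.5 ± 3.44 FPKM (SD, n = 3), 14.8 times the control mean (log2 fold change 3.71, SE 0.21, limma adjusted p = 8.73e-07). *Ccl5* ranked number 9 by log2 fold change among the 11687 tested genes, ahead of *Ccl8* (33) and *Ccl12* (68).

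*Ccl4*, one of the macrophage inflammatory proteins, was at 28.3, 29.7 and 27.9 FPKM in the control libraries and at 56.2, 58.6 and 59.5 FPKM in the CITED2-deficient libraries. Both groups were tight, with 339 to 353 and 873 to 1025 fragments per library, and they were far apart. The log2 fold change was 1.00 (SE 0.04, limma adjusted p = 1.23e-07), the most precise estimate among the members that rose to about this degree.

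*Ccl3*, a ligand of CCR1, was at 55.9, 58.6 and 60.5 FPKM in the control libraries and at 59.6, 63.8 and 68.1 FPKM in the CITED2-deficient libraries. The lowest CITED2-deficient value fell below the highest control value. The log2 fold change was 0.13 with a 95% interval of 0.01 to 0.25 (limma adjusted p = 0.0725). The call depended on the fit: *Ccl3* passed with median-ratio scaling (log2 fold change 0.229, limma adjusted p = 0.00818), with quantile normalization (adjusted p = 0.0399), and without CITED2-deficient replicate 1 (0.175, adjusted p = 0.0195).

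*Ccl6* and *Ccl9*, ligands of CCR1 that macrophages and other myeloid cells make without stimulation, were by far the highest members in both groups. *Ccl9* was at 368, 363 and 364 FPKM in the control libraries and at 387, 383 and 391 FPKM in the CITED2-deficient libraries. The groups did not overlap, since replicates differed by about 1% and each library held between 10685 and 17376 fragments of the gene. The ratio of the means was 1.06 and the log2 fold change 0.08 (SE 0.02, limma adjusted p = 0.0193). The call was lost without the variance trend (adjusted p = 0.106), without control replicate 2 (0.0528), without control replicate 3 (0.0627) and without CITED2-deficient replicate 3 (0.0581), while median-ratio scaling raised the estimate to 0.187.

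*Ccl6* was at 648.7, 642.0 and 600.1 FPKM in the control libraries and at 606.3, 676.1 and 661.3 FPKM in the CITED2-deficient libraries. The groups overlapped, and the log2 fold change was 0.04 with a 95% interval of -0.06 to 0.14 (limma adjusted p = 0.505). It passed with median-ratio scaling alone of the settings tried (0.143, adjusted p = 0.0428). *Ccl6* overlaps the antisense gene *E230016K23Rik*, which is also listed, and the same limit on strand applies to it as to *Ccl2*.

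*Ccl24*, a CCR3 ligand that attracts eosinophils, was below 1 FPKM in every library, with 6, 11 and 8 fragments in control replicates 1, 2 and 3 and 5, 7 and 10 in those that lack CITED2. At these counts no difference was detectable (log2 fold change -0.18 in a limma fit without the filter, adjusted p = 0.295).

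**Figure D2:**
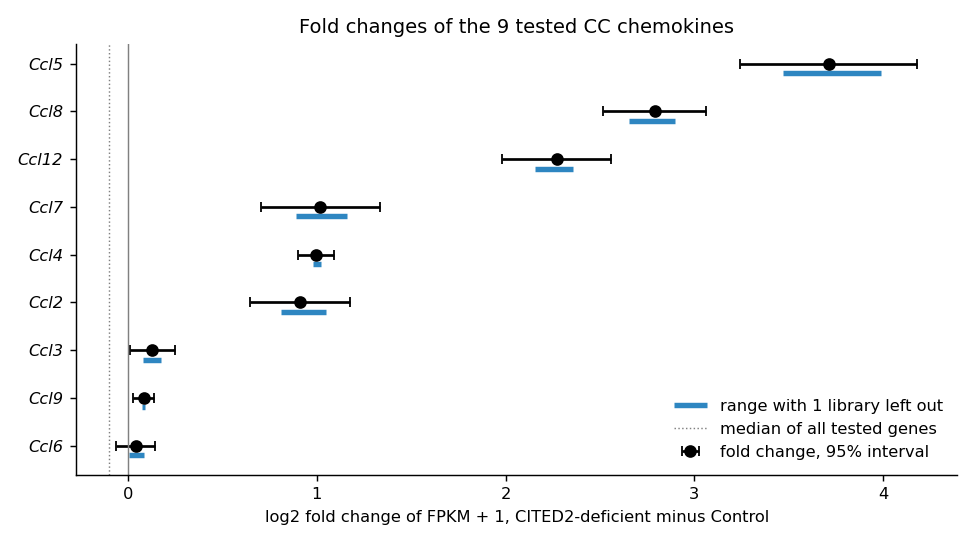
Log2 fold change of FPKM + 1 (CITED2-deficient minus control) of the 9 tested genes, with the 95% interval (black) and the range of estimates when 1 of the 6 libraries is left out (blue); the dotted line is the median of all tested genes, -0.101. Ccl5, Ccl8 and Ccl12 are the 3 rightmost, and the interval of Ccl6 alone includes 0.

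Leaving out any 1 library did not end the call of *Ccl2*, *Ccl4*, *Ccl5*, *Ccl7*, *Ccl8* or *Ccl12*. Over these 6 fits the log2 fold change ran from 3.47 to 3.99 for *Ccl5*, from 2.66 to 2.90 for *Ccl8*, from 2.15 to 2.36 for *Ccl12*, from 0.89 to 1.16 for *Ccl7*, from 0.81 to 1.05 for *Ccl2* and from 0.98 to 1.02 for *Ccl4*. When a fold change of at least 2 on the log2(FPKM + 1) scale was required as well, 4 members were called (*Ccl5*, *Ccl8*, *Ccl12* and *Ccl7*), against 3.72% of all tested genes called higher by that rule, with *Ccl4* just under it. The groups did not overlap, with the CITED2-deficient libraries higher, for 7 members, and 19.0% of all tested genes had that pattern (59.9% were without overlap in either direction).

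The order of the levels changed with the genotype. In control BMDMs it ran from *Ccl6* (630.0 FPKM) through *Ccl9* (365), *Ccl3* (58.3), *Ccl4* (28.6), *Ccl8* (5.61), *Ccl5* (5.09), *Ccl2* (5.0), *Ccl7* (3.43) and *Ccl12* (1.68) to *Ccl24* (0.494), and among neighbours in that order the ranges of *Ccl8* and *Ccl5*, and of *Ccl5* and *Ccl2*, overlapped. In CITED2-deficient BMDMs *Ccl5* (75.5 FPKM) stood after *Ccl6* and *Ccl9* and ahead of *Ccl3* and *Ccl4*, and *Ccl12* (11.9) was level with *Ccl2* (10.1), their ranges overlapping. Levels between genes depend on the transcript length used. The FPKM match the mean length of a gene's annotated transcripts, and with the length of the longest coding transcript instead, *Ccl6* came to 388 FPKM and *Ccl9* to 207 FPKM in control BMDMs, since their annotated transcripts run from 442 to 1440 bases and from 398 to 3006 bases. Both still came before *Ccl3* in both groups, while *Ccl2* (5.87) then came before *Ccl5* (5.74) and *Ccl8* (5.61) in control BMDMs.

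Summed over the 10 genes, the level was 1124, 1116 and 1071 FPKM in the control libraries and 1251, 1335 and 1335 FPKM in the CITED2-deficient libraries. Most of this sum was *Ccl6* and *Ccl9*, which stayed nearly level. Without them the sum was 107.1, 111.1 and 106.5 FPKM in control and 258.0, 276.3 and 282.5 FPKM in CITED2-deficient BMDMs. The monocyte chemoattractant group contributed 14.5 to 18.0 FPKM of this in control and 68.9 to 80.5 FPKM in CITED2-deficient BMDMs, and *Ccl3*, *Ccl4* and *Ccl5* together 88.8 to 95.8 and 189 to 202 FPKM. The share of the 10-gene sum held by *Ccl6* was 56.0% to 57.7% in control and 48.5% to 50.6% in CITED2-deficient libraries, while that of *Ccl5* was 0.296% to 0.674% and 5.54% to 5.95%, and that of *Ccl8* 0.415% to 0.59% and 3.23% to 3.71%.

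Of the 10 genes, 9 lie on chromosome 11 in a pair of groups, and *Ccl24* lies alone on chromosome 5 (chr5:135569937-135573049, mm10, as are all coordinates here). The first group, *Ccl2*, *Ccl7*, *Ccl12* and *Ccl8* (chr11:82035571-82116799), spans 81.2 kb, with *Ccl11* among them. The second, *Ccl5*, *Ccl9*, *Ccl6*, *Ccl3* and *Ccl4* (chr11:83525778-83664683), spans 139 kb. Most of these genes have 3 exons, and the annotation gives up to 4 for *Ccl6*, *Ccl9* and *Ccl24*. All 4 members of the first group rose, whereas in the second group *Ccl5* and *Ccl4*, at its ends, rose by 3.71 and 1.00 on the log2 scale and the genes between them by 0.13 or less. The groups lie 1410 kb apart, and 23 genes between them were tested, of which 11 were higher and 1 was lower. Several *Slfn* genes were among these 23. Of all tested genes, 16.7% were called higher and 34.6% lower, and whether the region rose as a whole was not tested.

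**Figure D3:**
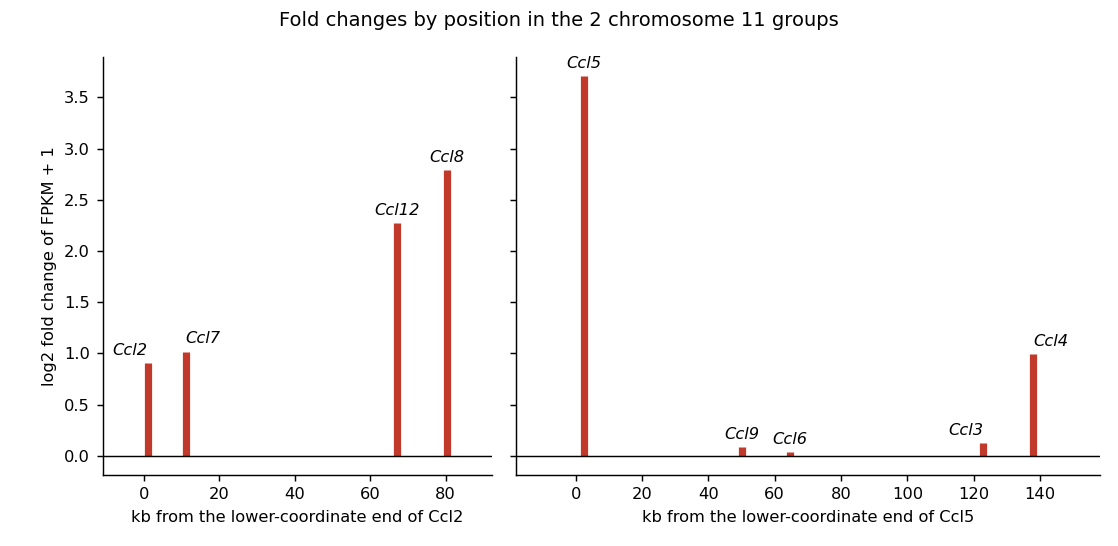
Log2 fold change of FPKM + 1 (CITED2-deficient minus control) against distance in kb along chromosome 11, for the group from Ccl2 to Ccl8 (left) and the group from Ccl5 to Ccl4 (right); each bar is 1 gene. Ccl12 and Ccl8 have the tall bars on the left, and Ccl9, Ccl6 and Ccl3 are near 0 between Ccl5 and Ccl4.

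Members that follow each other along chromosome 11 were compared within each library (*Ccl11*, which is no member, lies between *Ccl7* and *Ccl12*), which removes any scaling between libraries. *Ccl3* and *Ccl4* are 13.2 kb apart, and the log2 ratio of *Ccl4* to *Ccl3* was -0.98, -0.98 and -1.12 in control BMDMs against -0.08, -0.12 and -0.20 in CITED2-deficient BMDMs. *Ccl4* thus went from below *Ccl3* by about 1 log2 unit to nearly level with it, a difference of 0.892 with no overlap (exact permutation test, two-sided, p = 0.1, adjusted p = 0.2 over 8 pairs, where 0.1 is the smallest p that 3 against 3 libraries allow). The ratios of *Ccl12* to *Ccl7* and of *Ccl9* to *Ccl5* did not overlap between the groups either, with differences of 1.62 and -3.90 (exact permutation p = 0.1 for each), nor did that of *Ccl5* to *Ccl8* across the gap, with a difference of 0.982. For *Ccl7* to *Ccl2*, *Ccl8* to *Ccl12*, *Ccl6* to *Ccl9* and *Ccl3* to *Ccl6* the groups overlapped, with differences of 0.175, 0.16, -0.044 and 0.09 (exact permutation p = 0.5, 0.7, 0.6 and 0.3).

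**Figure D4:**
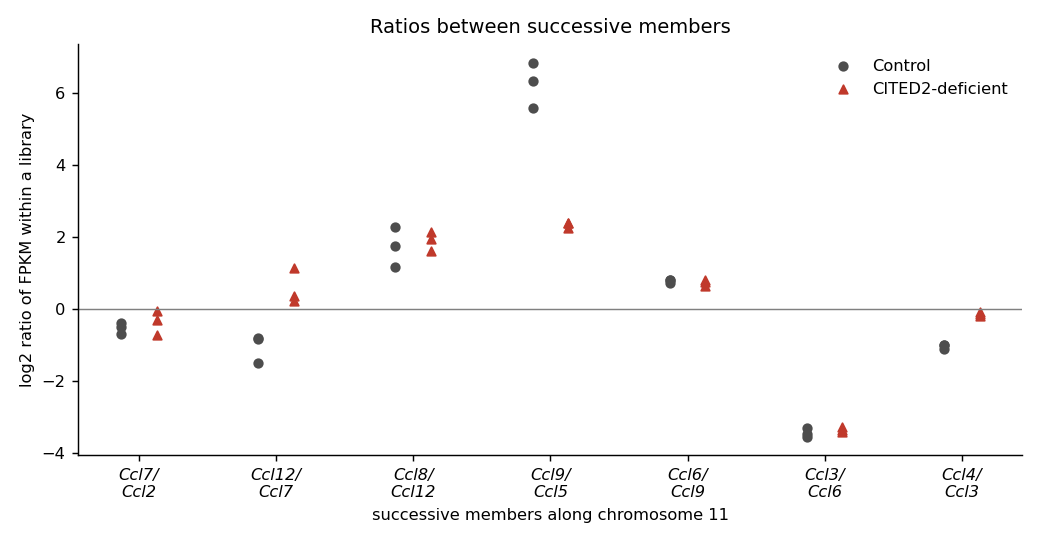
Log2 ratio of the FPKM of successive members along chromosome 11 within each library, for 3 control (circles) and 3 CITED2-deficient (triangles) libraries. The groups are apart for Ccl12 to Ccl7, Ccl9 to Ccl5 and Ccl4 to Ccl3, and overlap for the other pairs shown.

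The upstream sequence of 5 members (*Ccl12*, *Ccl8*, *Ccl9*, *Ccl6* and *Ccl3*) was matched by symbol in the RefSeq promoters of GRCm38.p6, the assembly also called mm10. The 250 bases before the transcription start of *Ccl12* (chr11:82101595-82101844, plus strand), *Ccl8* (chr11:82114935-82115184, plus strand) and *Ccl9* (chr11:83578637-83578886, minus strand) are given 5′ to 3′, because *Ccl12* and *Ccl8* rose most of these 5 and *Ccl9* little. Capitals mark matches to the motifs searched.
*Ccl12*: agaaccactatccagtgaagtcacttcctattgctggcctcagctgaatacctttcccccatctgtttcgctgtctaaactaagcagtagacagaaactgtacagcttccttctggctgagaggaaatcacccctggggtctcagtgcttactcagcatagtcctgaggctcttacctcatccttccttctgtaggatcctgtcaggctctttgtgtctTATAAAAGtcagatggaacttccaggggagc
*Ccl8*: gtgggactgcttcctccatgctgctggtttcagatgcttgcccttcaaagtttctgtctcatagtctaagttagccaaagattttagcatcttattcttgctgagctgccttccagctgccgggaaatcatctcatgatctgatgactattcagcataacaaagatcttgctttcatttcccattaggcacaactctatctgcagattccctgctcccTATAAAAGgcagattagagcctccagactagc
*Ccl9*: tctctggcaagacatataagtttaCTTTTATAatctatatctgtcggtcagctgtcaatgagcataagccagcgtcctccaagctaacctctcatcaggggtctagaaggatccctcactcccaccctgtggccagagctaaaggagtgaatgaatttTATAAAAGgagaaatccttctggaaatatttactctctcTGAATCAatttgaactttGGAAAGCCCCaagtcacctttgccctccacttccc
The motifs, searched on both strands, were a TATA box (TATAAAAG), the NF-kB consensus, an AP-1 site (TGANTCA, which reads the same on both strands), an interferon response element core (GAAA, any pair of bases, GAAA) and a STAT site (TTCNNNGAA). The TATA box lay 31 to 24 bases before the start of *Ccl12* and 32 to 25 bases before the start of *Ccl8*. In *Ccl9* it lay 92 to 85 bases before the start, and a match on the other strand lay at 226 to 219. It was in 3 of the 5 windows and in 1.51% of all 32851 promoter windows of this length. *Ccl9* alone of the 5 held the NF-kB consensus, on the minus strand of the window 35 to 26 bases before its start (7.25% of all windows), and the AP-1 site, 53 to 47 bases before it (6.75%). The interferon response element core and TTCNNNGAA were in 0 of the 5, beside 2.98% and 7.02% of all windows. Aligned end to end, the windows of *Ccl12* and *Ccl8* were 63.4% identical, within the range of all 10 pairs (55.1% to 66.3%).

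Other CC chemokine genes were scarce in these cells. Of 15 further CC chemokines looked for, 6 were listed and 2 were tested, of which 0 were higher and 1 was lower. The shares over all tested genes were 16.7% higher and 34.6% lower. *Ccl27a*, a skin chemokine, was at 3.13, 3.32 and 4.04 FPKM in the control libraries and at 1.30, 1.93 and 1.80 FPKM in the CITED2-deficient libraries. It thus fell without overlap (log2 fold change -0.75, SE 0.13, limma adjusted p = 0.00145), on 33 to 44 and 19 to 27 fragments, and its value is uncertain because mice carry near-identical copies of the gene. *Ccl25* did not pass (log2 fold change 0.09, adjusted p = 0.558). *Ccl22*, a ligand of CCR4, was below the filter with 5, 7 and 2 fragments in control replicates 1, 2 and 3 and 18, 12 and 13 in those that lack CITED2, and *Ccl11*, *Ccl17* and *Ccl28* were at means of at most 0.106 FPKM in either group.

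Some CC receptors rose in the same libraries. Of 15 CC receptor genes looked for, 13 were listed and 5 tested: 3 were higher, 1 was lower and 1 did not pass, with a median log2 fold change of 0.531. Among all tested genes, 16.7% were called higher and 34.6% lower. *Ccr2*, the receptor for *Ccl2*, *Ccl7* and *Ccl12*, was at 25.1, 23.6 and 24.1 FPKM in control and at 35.1, 37.0 and 34.5 FPKM in CITED2-deficient BMDMs (log2 fold change 0.53, SE 0.05, limma adjusted p = 1.56e-05). *Ccrl2*, an atypical receptor that does not signal in the classical way, was at 21.8, 20.9 and 19.7 FPKM in control and at 32.2, 38.4 and 37.5 FPKM in CITED2-deficient BMDMs (log2 fold change 0.76, SE 0.07, adjusted p = 2.4e-05). Both rises were held in all 16 alternative fits.

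The other tested receptors were low. *Ccr1*, which binds *Ccl3*, *Ccl5*, *Ccl6* and *Ccl9*, was at 1.48, 2.23 and 1.77 FPKM in control and at 1.53, 2.14 and 1.62 FPKM in CITED2-deficient BMDMs. The groups overlapped, and the 95% interval of the log2 fold change was -0.36 to 0.30 (limma adjusted p = 0.884). *Ccr3*, which binds *Ccl24* and *Ccl5*, was at 3.35, 3.18 and 3.61 FPKM in control and at 2.51, 2.64 and 2.19 FPKM in CITED2-deficient BMDMs (log2 fold change -0.35, SE 0.10, adjusted p = 0.0196). Its call was lost with no filter (0.0594), with median-ratio scaling (0.0588), without control replicate 3 (0.0668) and without CITED2-deficient replicate 3 (0.0679). *Ccr7*, below the filter, had 6, 9 and 7 fragments in control and 41, 22 and 21 in CITED2-deficient BMDMs.

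**Figure D5:**
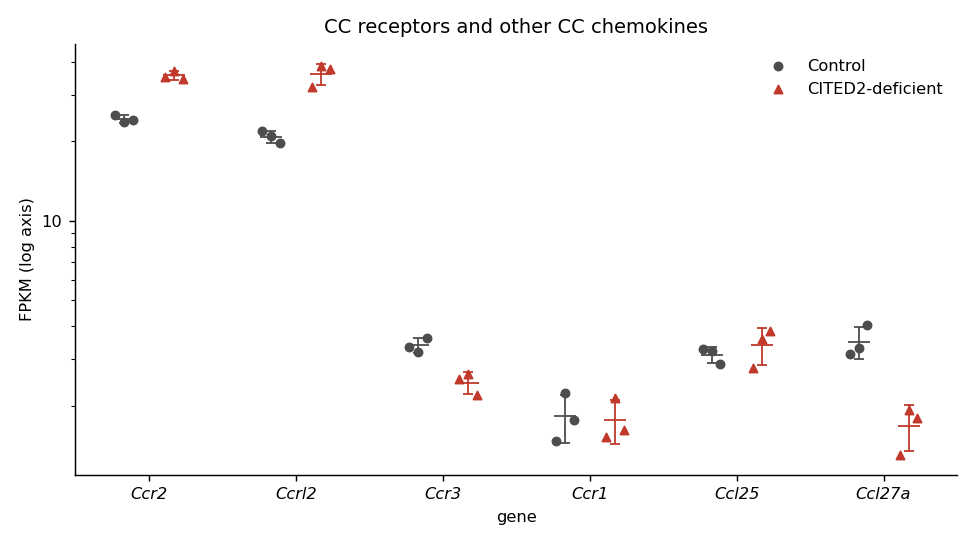
FPKM (log axis) of 4 tested CC receptors and of Ccl25 and Ccl27a in the 3 control (circles) and 3 CITED2-deficient (triangles) libraries; lines are the mean and SD. Ccr2 and Ccrl2 are higher and Ccr3 and Ccl27a lower in the CITED2-deficient libraries without overlap, and Ccr1 and Ccl25 overlap.

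Genes for regulators of chemokine transcription were read in the same fit. Of 20 listed and tested, 11 were higher, 3 lower and 6 did not pass, with a median log2 fold change of 0.131. Of all tested genes, 16.7% were called higher and 34.6% lower. The lower regulators were *Irf3* (log2 fold change -0.39), *Stat3* (-0.13) and *Fos* (-0.57). Interferon-activated factors were among those that rose: *Irf7* was at 73.7 ± 7.02 FPKM in control and 816 ± 35.5 FPKM in CITED2-deficient BMDMs (log2 fold change 3.46, limma adjusted p = 8.88e-10), *Stat2* at 59.3 ± 2.36 and 257 ± 12.1 FPKM (2.10, adjusted p = 1.45e-09), and *Irf1* at 73.0 ± 0.736 and 131 ± 12.8 FPKM (0.84, adjusted p = 4.99e-06). Of the NF-kB subunit genes, *Nfkb1*, *Nfkb2*, *Rela* and *Relb* did not pass, nor did the inhibitor gene *Nfkbia*, with log2 fold changes between -0.10 and 0.06. The remaining subunit gene, *Rel*, was higher, at 9.67 ± 0.422 FPKM in control and 11.1 ± 0.667 FPKM in CITED2-deficient BMDMs (log2 fold change 0.18, limma adjusted p = 0.0458). Its call was lost with no filter (adjusted p = 0.0806), with the replicate block (0.063), and when any of the control libraries (0.0509, 0.0946 and 0.129 without replicates 1, 2 and 3) or CITED2-deficient replicate 1 (0.0744) or replicate 2 (0.158) was left out. *Bcl6*, a repressor of many chemokine genes and a subject of the study, was at 27.8 ± 1.73 FPKM in control and 30.9 ± 1.05 FPKM in CITED2-deficient BMDMs (SD, n = 3; log2 fold change 0.15, adjusted p = 0.0434). That call was lost in 7 of 16 alternatives: no filter (adjusted p = 0.0806), no variance trend (0.0745), and without control replicate 1 (0.147), control replicate 2 (0.0826), or CITED2-deficient replicate 1 (0.0607), 2 (0.0664) or 3 (0.136).

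The genes whose pattern over the 6 libraries was most like that of *Ccl5*, by the root mean square difference of log2(FPKM + 1) from the control mean, were *Gm6545* (0.323), *Trim34b* (0.325) and *Ifit3b* (0.341). Those most like *Ccl6*, the tested member with the lowest fold change, were *Khdc4* and *Tctex1d2* (0.0178 each) and *Rnf11* (0.0232).

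Markers of other cell types differed between the groups as well. For scale, 16.7% of all tested genes were called higher and 34.6% lower. The monocyte markers (*Ly6c2*, *Ccr2*, *Plac8* and *Chil3* among them) summed to 250 to 288 FPKM in control and 329 to 365 FPKM in CITED2-deficient BMDMs, with 4 of 5 higher and 1 lower, and *Ccr2* is counted among the receptors too. Of 10 fibroblast or stromal markers, 8 were tested and all 8 were higher, with sums of 45.0 to 54.7 FPKM in control and 560, 181 and 183 FPKM in CITED2-deficient replicates 1, 2 and 3. Of 5 endothelial markers, 3 were tested and 2 were higher, with sums of 6.00 to 6.25 and 27.4 to 32.6 FPKM. Most of that rise was *Kdr*, at means of 4.26 FPKM in control and 27.5 FPKM in CITED2-deficient BMDMs. *Cdh5* was at 0.72 and 1.52 FPKM, and *Pecam1* did not pass. The 8 neutrophil markers summed to 727 to 795 and 658 to 777 FPKM, with 1 higher and 5 lower of 7 tested. The 7 dendritic cell markers summed to 17.2 to 20.4 and 23.5 to 27.4 FPKM, with the 1 tested higher, the 5 eosinophil markers to 10.6 to 12.5 and 3.51 to 5.42 FPKM, with both tested lower, and the 6 osteoclast markers, 4 of them listed, to 54.4 to 56.8 and 66.2 to 72.0 FPKM, with 1 higher and 1 lower of 3 tested. T or NK cell markers (6 of 7 listed), mast cell or basophil markers and B cell markers summed to at most 1.19, 2.08 and 3.29 FPKM in any library. None of the listed markers was at 0 in all 6 libraries.

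CITED2-deficient replicate 1, which had the highest stromal sum, was not the highest library for any member. Without it the log2 fold changes were 3.735 for *Ccl5*, 2.852 for *Ccl8*, 2.355 for *Ccl12*, 1.019 for *Ccl4*, 1.005 for *Ccl7* and 0.921 for *Ccl2*, about as large as with it. In all 3 CITED2-deficient libraries the stromal sum was above every control value. The part of the stromal, monocyte, endothelial and other markers in these differences was not tested.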

How the data were processed

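RNA of 6 BMDM libraries was measured, 3 per genotype, grouped by the labels. The authors used TruSeq stranded total RNA libraries with ribosomal RNA removal on an Illumina NextSeq, STAR, Cuffdiff, Cufflinks, mm10 and GENCODE (versions not given in the sources used here), and deposited FPKM per gene and library, unpooled. FPKM are scaled to library size and transcript length, so large changes in some genes can shift others.

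Fragments were recovered from FPKM with mean transcript lengths in GENCODE vM21. Of 22239 matched genes, 96.1% were whole within 0.02 in all 6 libraries. Log2(FPKM + 1) was tested for genes whose mean FPKM reached 1, with limma 3.58.1 (R 4.3.3, variance trend, Benjamini-Hochberg adjustment over all 11687 genes). Within-library ratios were tested by exact permutation (SciPy 1.17.1), and sequences were aligned with Biopython 1.88. Steps were tested on simulated data. Replicates differed beyond sampling noise (mean chi-square per gene 2.26 to 5.87), so none was counted as 1 library deposited in duplicate, which leaves shared animals or cultures untested.

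The members, gene lists and markers were chosen with earlier results of these data known. Named are the members, Cited2, listed genes, markers, and the 3 genes most like the member with the largest rise and the member with the lowest fold change. Alternatives were pseudocounts of 0.1 and 0.5, other filters, scalings and variance models, a replicate block, libraries left out, limma-voom on fragments and other call rules. Longest coding transcript lengths and the alternatives for the receptors, regulators and further chemokines were added after seeing the data. The authors' Cuffdiff test was not used here, and some genes of the lists are counted but not reported here.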

Additional observations from a re-analysis of the deposited data

How the results depend on the processing

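Of the 16 alternative fits, each kept the direction of all 9 tested members and of *Cited2*, and *Ccl2*, *Ccl4*, *Ccl5*, *Ccl7*, *Ccl8*, *Ccl12* and *Cited2* kept their calls in all 16. The number of members called higher was 6 to 8 with 1 library left out, 6 without the variance trend, 8 with quantile normalization, 9 with median-ratio scaling and 7 otherwise, apart from the replicate block below. A fold change of at least 2 left 4 members and 615 of all tested genes (5994 before), 0 of the further CC chemokines, 0 of the receptors and 3 of the regulators, and a mean FPKM of at least 5 left 0 of the further CC chemokines, since fewer genes pass these rules. With 1 library left out, all tested genes called numbered 5226 to 5467. The estimate of *Ccr1* turned positive with median-ratio scaling (0.037) and without control replicate 2 (0.072), CITED2-deficient replicate 1 (0.032) or CITED2-deficient replicate 3 (0.006), and ran from -0.124 to 0.072 with 1 library left out, never passing the test. The cause was not tested.

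Same-numbered libraries did not deviate together (correlations 0.014, 0.008 and 0.04), so no pairing by number was seen. The labels do not say whether the libraries were paired, and correlations over 3 libraries per group cannot settle it. With the replicate block, 8 members were called higher (*Ccl3* passed, limma adjusted p = 0.0303) and 5708 of all genes.

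The low counts of *Ccl24* and of most further CC chemokines and receptors limit their precision, and 3 against 3 libraries cannot give an exact permutation p below 0.1.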
